A study of Mus musculus with 19 samples.

Results

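The heme and iron handling genes described here are 8 of the 27998 genes in the count matrices, taken by symbol: Hmox1, Blvra and Blvrb of heme breakdown, Fth1 and Ftl1 of iron storage, Slc40a1 of iron export, Tfrc of iron uptake, and Slc11a1 of metal transport in the phagosome. All 8 symbols were found in each of the 19 libraries. The study induced heterotopic ossification, the formation of bone in soft tissue, with a dorsal burn over 30% of the body surface together with division of the Achilles tendon (tenotomy), and profiled single cells from the tendon injury by 10x 3′ sequencing. The libraries form 5 groups: day 0 (n = 4), day 3 (n = 3), day 7 (n = 4) and day 21 (n = 4) after injury, and CD47 treated (n = 4). The last group had burn and tenotomy with a CD47-activating peptide, p7N3, at 10 mg/kg, given for 3 days before and 3 days after injury. Only 3 of the 4 CD47 treated libraries carry a harvest day in their labels, day 7, which a figure legend of the study gives for the group as a week after injury. The study also describes daily injections of the peptide for 3 weeks, without stating the schedule of these libraries. Labels of day 0 list the burn while the study describes day 0 as uninjured, and the labels name C57 and LysmCre/Tgfb1fx/fx mice, in which LysM-Cre acts in myeloid cells, for the series without giving a genotype for any library. For its p7N3 comparison the study names PBS as the control treatment, while the labels give no vehicle for any library, and the day 7 libraries are the comparison group here. The study describes its single cell replicates as a measure of variation between mice, but the labels tie no library to an animal, so that p-values measure the spread between libraries.

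Macrophages that take up red cells and dead tissue break heme down with heme oxygenase 1 (Hmox1), which releases iron, carbon monoxide and biliverdin. Biliverdin reductase A (Blvra) turns this biliverdin into bilirubin. Biliverdin reductase B (Blvrb) shares the name and is not taken here as an enzyme of that same step. The iron is stored in ferritin, a shell of heavy (Fth1) and light (Ftl1) chains, or leaves the cell through ferroportin (Slc40a1), the known cellular iron exporter. Transferrin receptor 1 (Tfrc) brings transferrin-bound iron in, and Slc11a1, known as Nramp1, moves iron and other divalent metals out of the phagosome of myeloid cells.

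In 4 of the genes at least 1 annotated mRNA carries an iron-responsive element, a hairpin bound by the iron regulatory proteins when iron is scarce. Binding in the 5′ untranslated region holds back translation, and binding in the 3′ untranslated region protects the mRNA from decay. A search of the 8 genes' annotated untranslated regions for a C, 5 bases, the loop CAGTGN and 5 bases pairing with the first 5, on the strand of the transcript, found 7 sites. They are shown because they separate the members held at translation from Tfrc, held at the level of mRNA, which is the level that UMI counts follow. The sites run 5′ to 3′ in mouse GRCm38 coordinates, with the loop in capitals:
Fth1, 5′ UTR, chr19:9982730-9982759, plus strand: gtttcctgcttcaaCAGTGCttgaacggaa
Ftl1, 5′ UTR, chr7:45459780-45459809, minus strand: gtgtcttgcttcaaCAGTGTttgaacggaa
Slc40a1, 5′ UTR, chr1:45925466-45925495, minus strand: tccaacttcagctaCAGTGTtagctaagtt
Tfrc, 3′ UTR, chr16:32631217-32631246, plus strand: ataattatcggaagCAGTGCcttccataat
Tfrc, 3′ UTR, chr16:32631596-32631625, plus strand: cacattatcgggagCAGTGTcttccataat
Tfrc, 3′ UTR, chr16:32631661-32631690, plus strand: gtctatatcggagaCAGTGAtctccatatg
Tfrc, 3′ UTR, chr16:32631708-32631737, plus strand: gtaattatcgggaaCAGTGTttcccataat
The site lay in 4 of 5 coding transcripts of Fth1, 1 of 2 of Ftl1 and 1 of 4 of Slc40a1, and each Tfrc site in 1 of 3. UMI counts per gene do not separate these transcripts. No match was found in Hmox1, Slc11a1, Blvra or Blvrb. Among 21877 coding genes, 0.142% held a match in a 5′ untranslated region and 0.59% in a 3′ untranslated region.

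After barcodes under 500 genes or over 25% mitochondrial UMIs (unique molecular identifiers, the counted molecules) were dropped, 39541 cells remained, 571 to 3668 per library. Their UMIs ranged from 3019467 to 5383855 per day 0 library and from 11064153 to 39870492 per library of the other groups. Clustering gave 30 clusters, of which 6 were macrophage-like (14261 cells), 6 stromal-like (13806 cells) and 2 endothelial-like (3066 cells) by markers that hold none of the 8 genes. Levels are given in CPM, a gene's UMIs scaled to the UMIs of all genes in the summed cells of a lineage in a library. By CPM alone, a change within cells and a change in which cells make up the lineage cannot be told apart. Day 0 held 63 to 127 macrophage-like cells per library and day 3 held 27 to 32 endothelial-like cells per library, the thinnest sums. Median UMIs per macrophage-like cell were 2920 to 4183 in the day 0 libraries and 9399 to 9947 in those of day 3. The 171 pairs of libraries shared between 0 and 22 cell barcodes.

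All 8 members were higher in macrophage-like cells than in the stromal-like and endothelial-like cells of the same library, in 19 of 19 libraries each. Against stromal-like cells the difference was largest for Slc11a1 (log2 difference 5.79 ± 0.15 (SE), adjusted p = 1.13e-26) and Hmox1 (log2 difference 3.78 ± 0.08 (SE), adjusted p = 2.75e-27), and smallest for Fth1 (log2 difference 1.73 ± 0.07 (SE), adjusted p = 1.29e-20). Against endothelial-like cells it was largest for Slc40a1 (log2 difference 5.46 ± 0.38 (SE), adjusted p = 2.15e-13) and smallest for Blvra (log2 difference 1.74 ± 0.06 (SE), adjusted p = 3.36e-32). The difference is averaged over the 5 groups, and endothelial-like Slc40a1 was at 0% of the macrophage-like mean at day 0. In the other groups it was at 7.07% to 10.7%, above Slc11a1 at 2.57% to 6.59%. Outside day 0 the gap by this share was thus larger for Slc11a1. The tests between lineages used edgeR's quasi-likelihood method with the library as a block and Benjamini-Hochberg adjustment, as all adjusted p-values here do. Calls between macrophage-like and stromal-like cells took 80.9% of all genes, 37.9% higher and 43% lower, and those between macrophage-like and endothelial-like cells 73.8% of all genes, 36.6% higher and 37.1% lower.

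Between the lineages with lower levels the members divided. Endothelial-like cells held less Slc40a1 than stromal-like cells (log2 difference -3.15 ± 0.68 (SE), adjusted p = 0.000161, higher in 0 of 19 libraries). The size of this difference includes day 0, where endothelial-like cells gave no UMI of Slc40a1. Endothelial-like cells also held less Fth1 (log2 difference -1.30, 0 of 19), less Blvrb (log2 difference -0.82, 0 of 19), less Ftl1 (log2 difference -0.68, 1 of 19), and more Blvra (log2 difference 0.52, 19 of 19). Hmox1 also passed the test (log2 difference -0.32 ± 0.09 (SE), adjusted p = 0.00244) although it was higher in endothelial-like cells in 9 of 19 libraries. Tfrc and Slc11a1 did not pass (adjusted p = 0.803 and 0.229). Beside these 6 members, the calls of this pair took 74.6% of all genes, 34.8% higher and 39.8% lower.

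**Figure D1:**
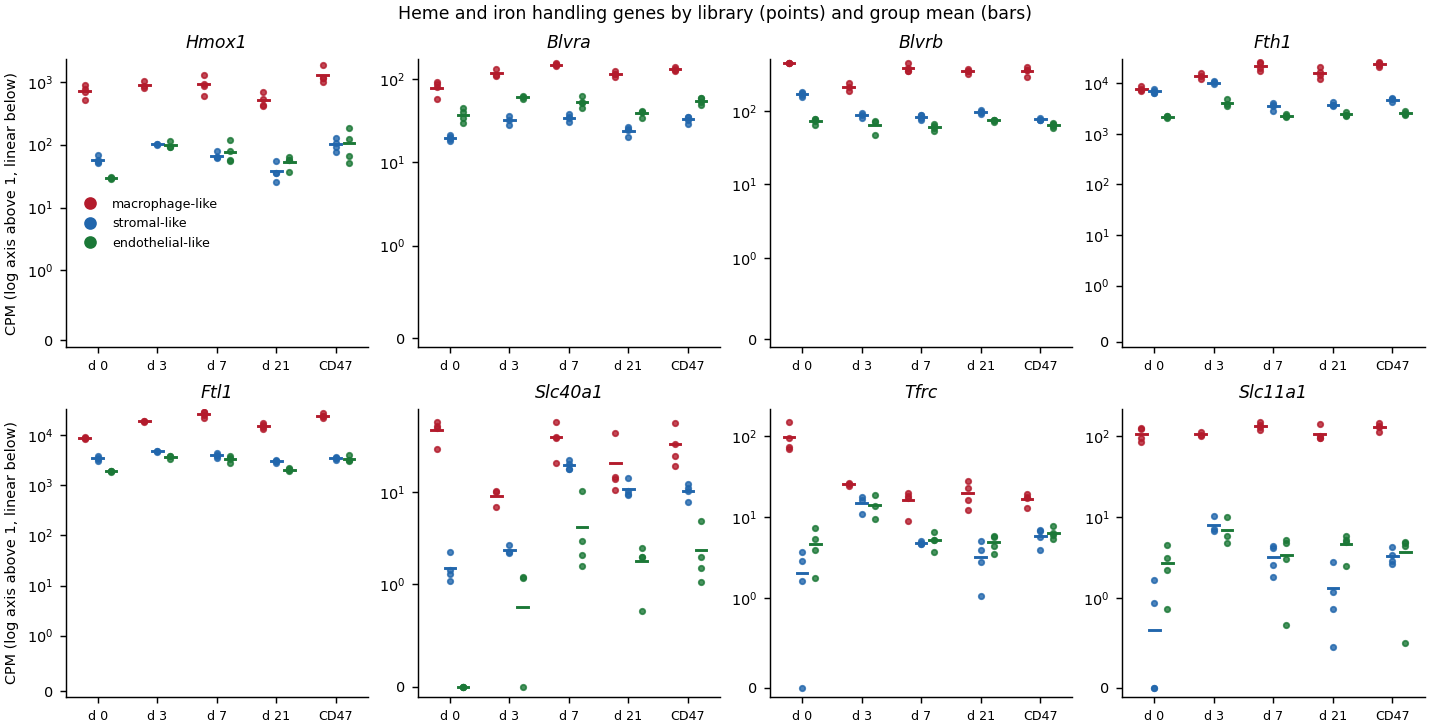
CPM of each of the 8 genes (1 panel each, log axis above 1 CPM and linear below) in macrophage-like, endothelial-like and stromal-like cells by group, with a point per library and a bar at the group mean. In every panel the macrophage-like points lie above the other lineages of the same libraries. Fth1 and Ftl1 in macrophage-like cells rise from day 0 to day 7, and Slc40a1 in stromal-like cells lies near 1 to 3 CPM at days 0 and 3 and at 9.29 to 22.2 CPM at days 7 and 21.

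Most members differed between days within each lineage, in comparisons in which much of the transcriptome differed as well. In macrophage-like cells 3 of 8 members rose and 3 fell from day 0 to day 3, where 6057 genes were tested and the calls took 54% of all genes, 25.1% higher and 28.9% lower. Against day 0, 4 rose and 1 fell at day 7 (35.2% of all genes, 18.3% higher and 16.9% lower), and 3 rose and 1 fell at day 21 (27% of all genes, 13.4% higher and 13.6% lower). From day 3 to day 7, 6 rose (30.1% of all genes, 14.4% higher and 15.7% lower), and from day 7 to day 21, 2 fell (14.1% of all genes, 7.21% higher and 6.85% lower). The median log2 difference of the 8 members was 0.21 at day 3, 0.57 at day 7 and -0.04 at day 21 against day 0, beside -0.01, 0.00 and -0.01 over all genes tested.

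In stromal-like cells 6 of 7 members tested rose and 1 fell from day 0 to day 3 (66.1% of all genes, 33.2% higher and 32.9% lower). Against day 0, 4 of 8 rose and 2 fell at day 7 (54.4% of all genes, 27.9% higher and 26.5% lower), and 1 of 6 rose and 2 fell at day 21 (38% of all genes, 19.1% higher and 18.9% lower). From day 3 to day 7, 5 of 8 fell and 1 rose (46.9% of all genes, 23.9% higher and 23% lower), and from day 7 to day 21 again 5 of 8 fell and 1 rose (34.2% of all genes, 17.9% higher and 16.3% lower). The median over members moved from 0.79 at day 3 to 0.52 at day 7 and -0.35 at day 21, with all genes at 0.00, 0.01 and -0.01.

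In endothelial-like cells 5 of 6 members tested rose from day 0 to day 3 (56.1% of all genes, 28.5% higher and 27.6% lower). Against day 0, 3 of 5 rose at day 7 (58.5% of all genes, 29.6% higher and 28.9% lower) and 1 of 5 at day 21 (25.5% of all genes, 13.5% higher and 11.9% lower). From day 3 to day 7, 2 of 6 fell (15.2% of all genes, 6.84% higher and 8.33% lower), and from day 7 to day 21, 2 of 5 fell and 1 rose (29.9% of all genes, 16.3% higher and 13.7% lower). The member medians were 1.06, 0.55 and 0.15 at days 3, 7 and 21, and those of all genes -0.04, -0.02 and 0.00. Comparisons within a lineage share libraries, so that those against day 0 are not independent of each other. Members missing from these totals did not pass the filter on low counts.

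The cells behind these sums changed with the day. Of macrophage-like cells at day 0, 84.2% were in cluster 13 (led by Cd209f, Ccl8, Cd163 and Folr2). At day 3 48.0% were in cluster 8 (Pf4, Mrc1) and 41.5% in cluster 4 (Chil3, Ly6c2). At day 7 31.3% were in cluster 2 (Ms4a7, Apoe, Trem2), 26.5% in cluster 6 (H2-Aa, Cd74) and 19.4% in cluster 7 (Arg1, Spp1, Gpnmb). At day 21 38.8% were in cluster 13, 22.8% in cluster 2 and 22.2% in cluster 6. Stromal-like cells were in cluster 11 (Myoc) at day 0 (98.4%) and in cluster 17 (Prg4, Lcn2) at day 3 (92.3%). They were spread over clusters 3, 1, 5 and 9 at day 7, and were mostly in cluster 1 (Sfrp4, Clec3b, Pi16) at day 21 (59.2%). Endothelial-like cells were in cluster 12 at day 0 (96.8%) and day 21 (62.5%) and in cluster 14 at day 3 (91.9%) and day 7 (85.4%). Values within a cluster are therefore given beside the lineage values where the cluster spans the days compared, with clusters chosen after seeing the data. For stromal-like and endothelial-like cells no cluster served for day 3 against day 0. At day 3 cluster 11 held 7 cells and cluster 12 held 7 cells, and at day 0 cluster 17 held 3 cells and cluster 14 held 34 cells. Their day 3 differences from day 0 thus compare cells of different clusters, without a value within a cluster. Within cluster 13, 53.4%, 28.2% and 16.1% of genes were called at days 3, 7 and 21 against day 0, 25.1% at day 7 against day 3 and 6.45% at day 21 against day 7. The shares were 16.5%, 6.06% and 9.15% in cluster 11 at day 7 and day 21 against day 0 and day 21 against day 7, 17.1%, 10.9% and 4.67% in cluster 12 for the same comparisons. In cluster 14 they were 15.9% and 19.5% at day 7 against day 3 and day 21 against day 7.

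**Figure D2:**
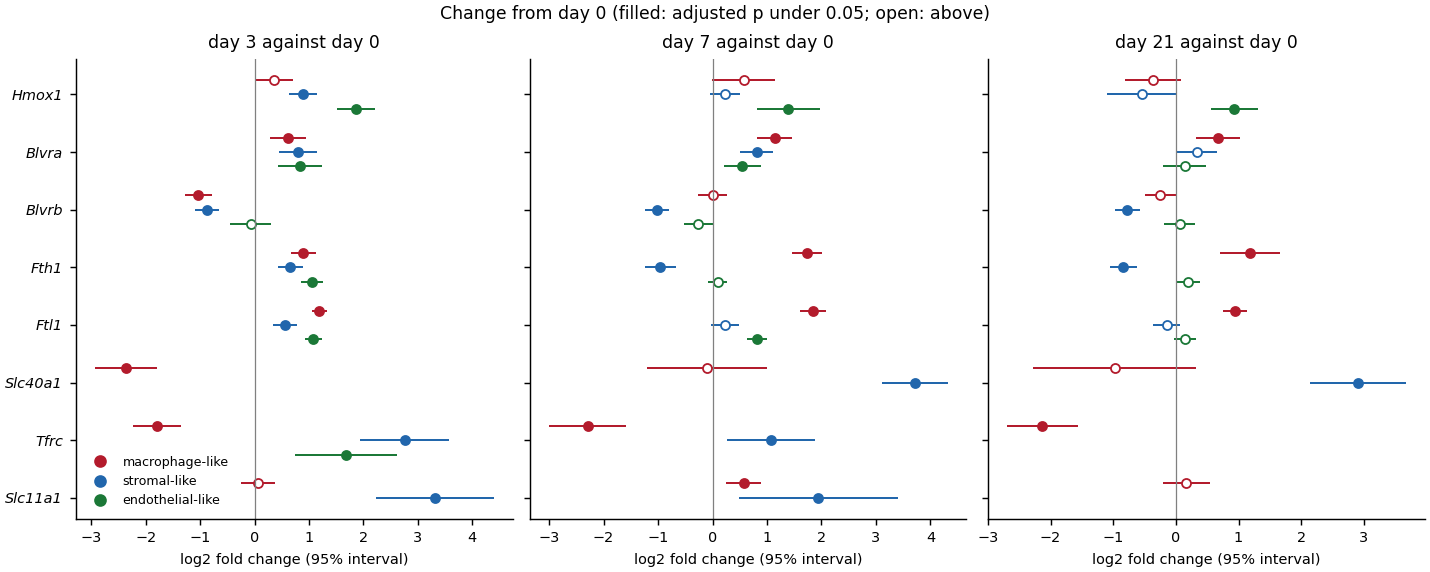
Log2 difference of each member from day 0, with its 95% interval, at days 3, 7 and 21 in each lineage, filled where the adjusted p was under 0.05; a member without a point was not tested. Fth1 and Ftl1 lie above 0 at all 3 days in macrophage-like cells, Tfrc lies below 0 in macrophage-like cells and above 0 in the other lineages at day 3, and Fth1 and Blvrb lie below 0 in stromal-like cells at days 7 and 21.

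Hmox1 (ENSMUSG00000005413, chr8:75093621-75100589, plus strand), the inducible heme oxygenase, rose in stromal-like and endothelial-like cells at day 3, while each later day overlapped with day 0 over all macrophage-like cells. In endothelial-like cells it stood at 29.5, 29.9, 30.6 and 28.3 CPM at day 0 and at 92.4, 91.8 and 113 CPM at day 3, with no overlap. It was 57.2, 117, 55.2 and 78.0 CPM at day 7 and 57.3, 58.0, 37.0 and 63.3 CPM at day 21, still above each day 0 library. The differences from day 0 were 3.65-fold at day 3 (log2 difference 1.87 ± 0.16 (SE), adjusted p = 3.36e-08), 2.62-fold at day 7 (log2 difference 1.39 ± 0.25 (SE), adjusted p = 0.000701) and 1.90-fold at day 21 (log2 difference 0.93 ± 0.17 (SE), adjusted p = 0.000895). Within cluster 12 the differences at day 7 and day 21 were 1.19 and 0.80 (adjusted p = 0.00152 and 0.00549). From day 3 to day 7 Hmox1 did not pass (adjusted p = 0.269), but it did with the highest doublet scores removed (-0.87, adjusted p = 0.00255) and without day 7 replicate 2 (log2 difference -0.74, adjusted p = 0.0116). In 1 fit of all 5 groups the call at day 21 was lost (adjusted p = 0.133).

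In stromal-like cells Hmox1 stood at 69.0, 56.3, 51.3 and 52.6 CPM at day 0 and at 102, 100.3 and 101 CPM at day 3 (log2 difference 0.89 ± 0.11 (SE), adjusted p = 2.22e-06). It fell to 62.0, 64.1, 64.5 and 78.0 CPM at day 7 (log2 difference -0.65 ± 0.09 (SE), adjusted p = 0.000409, day 7 against day 3), which overlapped with day 0, and stood at 34.9, 25.3, 35.6 and 54.8 CPM at day 21. The fall from day 7 to day 21 (log2 difference -0.75 ± 0.20 (SE), adjusted p = 0.0203) was lost without day 21 replicate 1, day 21 replicate 3 or day 7 replicate 4 (adjusted p = 0.0603, 0.0519 and 0.0537). Day 7 and day 21 did not pass the test against day 0 (adjusted p = 0.115 and 0.104). Day 7 passed without day 0 replicate 1 (log2 difference 0.36, adjusted p = 0.027) and day 21 without day 21 replicate 4 (log2 difference -0.80, adjusted p = 0.000224). Day 7 also passed with at least 10 UMIs or no filter (adjusted p = 0.0447 and 0.0401), and day 21 with replicates 1 to 3 or with chondrocyte-like cells added (adjusted p = 0.000672 and 0.000604). Within cluster 11 the fall from day 7 to day 21 did not pass (adjusted p = 0.491). As a share of the macrophage-like level, stromal-like Hmox1 was 8.03% at day 0 and 11.4% at day 3. The median of the 11 macrophage markers was at 0.510% and 6.78%, and the part of the markers in the day 3 rise was not tested.

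In macrophage-like cells Hmox1 stood at 881, 759, 694 and 520.0 CPM at day 0, 847, 797 and 1016 CPM at day 3, 602, 924, 845 and 1272 CPM at day 7 and 525, 420.2, 407 and 678 CPM at day 21. Day 7 replicate 4 was the highest and day 21 replicate 3 the lowest, and the ranges of days 3, 7 and 21 each overlapped with that of day 0. The log2 differences from day 0 were 0.36 (adjusted p = 0.0601) at day 3, 0.57 (adjusted p = 0.108) at day 7 and -0.36 (adjusted p = 0.198) at day 21. None of the 3 passed, and these calls changed with single libraries and with the processing. Day 3 passed without day 0 replicate 1 (log2 difference 0.64, adjusted p = 0.00169), day 0 replicate 4 (adjusted p = 0.0312) or day 3 replicate 2 (adjusted p = 0.0271). It also passed with RLE size factors, at least 10 UMIs in every library, at most 10% mitochondrial UMIs, replicates 1 to 3 or no filter on low counts (adjusted p = 0.0478, 0.0375, 0.0483, 0.0312 and 4.97e-07). Day 7 passed without day 7 replicate 1 (log2 difference 0.69, adjusted p = 0.00384) or day 0 replicate 1 (adjusted p = 0.0423), and day 21 was lower without day 21 replicate 4 (log2 difference -0.56, adjusted p = 0.00761). DESeq2 and no filter on low counts also called day 7 (adjusted p = 0.0465 and 2.17e-06), and replicates 1 to 3 alone called day 21 (adjusted p = 0.000658). Within cluster 13 the day 3 libraries stood apart, at 3829, 1673 and 2573 CPM against 1133, 833, 737 and 609.7 CPM at day 0 (log2 difference 1.66, adjusted p = 0.0123). These sums held 22, 45 and 13 cells at day 3. Day 21 against day 7 over all macrophage-like cells (log2 difference -0.89 ± 0.28 (SE), adjusted p = 0.081) passed without day 21 replicate 4 (adjusted p = 0.0412) or day 7 replicate 1 (adjusted p = 0.0131), and in 1 fit of all 5 groups, DESeq2 or replicates 1 to 3 (adjusted p = 0.0305, 0.00228 and 0.00693).

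Blvra (ENSMUSG00000001999, chr2:127070665-127097084, plus strand), biliverdin reductase A, rose with injury in the 3 lineages. In macrophage-like cells it stood at 80.1, 87.0, 57.9 and 91.4 CPM at day 0, 111, 132 and 108 CPM at day 3, 146, 151, 156 and 143 CPM at day 7 and 116, 107, 114 and 125 CPM at day 21. Each injured library was above each day 0 library. The log2 difference from day 0 was 0.62 (adjusted p = 0.00259) at day 3, 1.14 (adjusted p = 1.5e-06) at day 7 and 0.68 (adjusted p = 0.00252) at day 21. Within cluster 13 it was 1.22, 0.90 and 0.58 (adjusted p = 7.31e-06, 0.000139 and 0.0313). The rise from day 3 to day 7 (0.41, adjusted p = 0.00401) turned in direction within cluster 13 (-0.34, adjusted p = 0.0961). From day 7 to day 21 Blvra fell by 0.42 on the log2 scale (adjusted p = 0.0104) over all macrophage-like cells, and within cluster 13 the difference was -0.32 (adjusted p = 0.198).

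Stromal-like cells held 18.9, 17.9, 21.3 and 20.3 CPM of Blvra at day 0, 32.2, 36.4 and 27.9 CPM at day 3, 30.4, 34.8, 38.4 and 34.3 CPM at day 7 and 26.4, 24.4, 20.5 and 25.2 CPM at day 21. Day 3 and day 7 did not overlap with day 0. The log2 differences from day 0 were 0.79 (adjusted p = 0.00026), 0.81 (adjusted p = 0.000125) and 0.34 (adjusted p = 0.0775). The last passed without day 21 replicate 3 (adjusted p = 0.0389), with at least 10 UMIs (adjusted p = 0.0437) or with chondrocyte-like cells added (adjusted p = 0.0115). Within cluster 11 the day 7 difference was 0.03 (adjusted p = 0.969), so that the rise over all stromal-like cells was not seen in the cluster that made up day 0. Endothelial-like cells held 29.5, 34.3, 45.0 and 40.1 CPM at day 0 and 58.1, 62.8 and 60.4 CPM at day 3 (0.83, adjusted p = 0.000813) and 52.4, 45.5, 62.4 and 53.5 CPM at day 7 (0.55, adjusted p = 0.00378). Their fall from day 7 to day 21 (-0.41, adjusted p = 0.0324) was lost without day 21 replicate 1, 2 or 3 or day 7 replicate 1, 3 or 4 (adjusted p from 0.0532 to 0.0916). It was also lost with DESeq2, with replicates 1 to 3 and within clusters 12 and 14 (adjusted p = 0.0769, 0.051, 0.149 and 0.066).

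Blvrb (ENSMUSG00000040466, chr7:27447978-27466144, plus strand), biliverdin reductase B, moved the other way from Blvra at day 3 in macrophage-like and stromal-like cells. Macrophage-like cells held 458, 451, 448 and 449.8 CPM at day 0, a spread of 4.18 CPM (SD), and 186, 239 and 213 CPM at day 3 (2.06-fold lower, log2 difference -1.04 ± 0.11 (SE), adjusted p = 9.96e-07). Day 7 was back at 358, 393, 348 and 448 CPM (0.93, adjusted p = 0.000106 against day 3) and day 21 at 351, 371, 319 and 357 CPM. Day 7 lay below day 0 in CPM in all 4 libraries, while the fitted log2 difference was 0.00 (adjusted p = 0.994), since the fit uses normalization factors. The mean log2 factors differed by -0.23 for day 7 and -0.12 for day 21 against day 0 in macrophage-like cells and by -0.13 for day 3 against day 0 in endothelial-like cells, and fitted differences there lie above the CPM ratios by that amount. Within cluster 13 Blvrb stood at 586, 487, 479 and 520.2 CPM at day 0 and 446, 539 and 516 CPM at day 3 (log2 difference -0.08, adjusted p = 0.61). At day 7 it was 533 ± 60.0 CPM (SD, n = 4) in cluster 13, 518 ± 47.7 CPM in cluster 7, 221 ± 32.0 CPM in cluster 6 and 73.7 ± 14.7 CPM in cluster 4. The levels in clusters 2 and 8 are not given here. At day 3 cluster 8 held 48.0% and cluster 4 held 41.5% of macrophage-like cells. The part of cell make-up in the day 3 difference was not tested.

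In stromal-like cells Blvrb stood at 179.5, 157, 176 and 168 CPM at day 0 and was lower in each later library. It stood at 88.0, 93.4 and 81.7 CPM at day 3, 88.2, 76.5, 88.8 and 81.0 CPM at day 7 and 104, 97.1, 97.7 and 90.3 CPM at day 21. The log2 differences from day 0 were -0.88 (adjusted p = 7.08e-07), -1.02 (adjusted p = 4.32e-07) and -0.77 (adjusted p = 4.58e-06). Within cluster 11, which made up 98.4% of the day 0 cells, Blvrb was 179, 159, 175 and 172 CPM at day 0 and 174, 167, 156 and 176 CPM at day 7 (log2 difference 0.07, adjusted p = 0.773). Day 21 differed from day 0 by -0.23 (adjusted p = 0.264). The small rise from day 7 to day 21 over all stromal-like cells (0.27, adjusted p = 0.0213) was lost without day 21 replicate 1 or 3 or day 7 replicate 2 or 4 (adjusted p from 0.0595 to 0.0839). It was also lost with no filter (adjusted p = 0.0544), replicates 1 to 3 (adjusted p = 0.0577) or chondrocyte-like cells added (adjusted p = 0.632), and turned in direction within cluster 11 (-0.29, adjusted p = 0.247). In endothelial-like cells Blvrb did not pass against day 0 (log2 difference -0.07, -0.26 and 0.06 at days 3, 7 and 21), but day 7 passed without day 0 replicate 3 (adjusted p = 0.0404) or day 7 replicate 3 (adjusted p = 0.0449). Its rise there from day 7 to day 21 (0.33, adjusted p = 0.0375) was lost when any of the 8 libraries other than day 7 replicate 3 was left out (adjusted p from 0.0538 to 0.13). DESeq2 and no filter on low counts did not call it either (adjusted p = 0.131 and 0.092), and within cluster 12 it turned in direction (-0.28, adjusted p = 0.513).

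Both ferritin genes rose in macrophage-like cells at each day after injury. Fth1 (ENSMUSG00000024661, chr19:9980598-9985098, plus strand), the heavy chain that oxidizes iron for storage, stood at 8986, 7200.3, 7353 and 7902 CPM at day 0 and 14024, 12255 and 16152 CPM at day 3. It reached 20262, 25283, 17848 and 26273 CPM at day 7 and stood at 14589, 12074, 16924 and 21280.5 CPM at day 21, and each injured library lay above all day 0 libraries. The difference from day 0 was 1.86-fold at day 3 (log2 difference 0.90 ± 0.10 (SE), adjusted p = 6.93e-06), 3.34-fold at day 7 (log2 difference 1.74 ± 0.12 (SE), adjusted p = 6.86e-10) and 2.26-fold at day 21 (log2 difference 1.18 ± 0.19 (SE), adjusted p = 0.0045). Day 7 also passed against day 3 (0.72, adjusted p = 0.00517). Day 21 against day 7 did not (log2 difference -0.52, adjusted p = 0.105), but it did without day 21 replicate 4 (-0.69, adjusted p = 0.0105). It also passed with DESeq2, no filter on low counts or replicates 1 to 3 (adjusted p = 0.0499, 5.08e-05 and 0.0147).

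Ftl1 (ENSMUSG00000050708, chr7:45457944-45459884, minus strand), the light chain, stood at 8999.5, 8754, 8264 and 8581 CPM at day 0, 18649, 19329 and 19247 CPM at day 3, 21924, 29326, 25468 and 29075 CPM at day 7 and 14267, 13204, 16001 and 17510.1 CPM at day 21 in macrophage-like cells. No day overlapped with another. The difference from day 0 was 2.28-fold at day 3 (log2 difference 1.19 ± 0.06 (SE), adjusted p = 2.73e-10), 3.58-fold at day 7 (log2 difference 1.84 ± 0.11 (SE), adjusted p = 4.18e-12) and 1.93-fold at day 21 (log2 difference 0.95 ± 0.09 (SE), adjusted p = 1.19e-08). Ftl1 rose from day 3 to day 7 (0.53, adjusted p = 0.00378) and fell from day 7 to day 21 (-0.85, adjusted p = 0.000286). Both ferritin genes have processed pseudogenes in the mouse genome, and how reads shared with them were counted was not tested.

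Part of the ferritin difference was seen inside cluster 13. There Fth1 stood at 8559, 6581, 7359 and 7982 CPM at day 0, 13023, 11529 and 13974 CPM at day 3 and 9695, 12167, 11562 and 11448 CPM at day 7. The log2 difference from day 0 was 0.72 at day 3, 0.64 at day 7 and 0.49 at day 21 (adjusted p = 1.51e-07, 9.22e-07 and 1.38e-05). At day 7 this was less than the 1.74 over all macrophage-like cells, and day 7 against day 3 changed sign (-0.09, adjusted p = 0.556). Ftl1 in cluster 13 differed from day 0 by 1.02, 1.45 and 0.72 (adjusted p = 9.1e-14, 4.72e-16 and 1.67e-10). At day 7 Fth1 stood at 33853 ± 5670.1 CPM (SD, n = 4) in cluster 7, the Arg1 and Spp1 cluster, and at 25535 ± 6780.5 CPM in cluster 8. It stood at 25411 ± 3576 CPM in cluster 2, 14242 ± 1182 CPM in cluster 6, 13924 ± 1590.3 CPM in cluster 4 and 11218 ± 1063 CPM in cluster 13. Libraries of neighbours in this order overlapped, except between clusters 2 and 6 and between clusters 4 and 13.

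**Figure D3:**
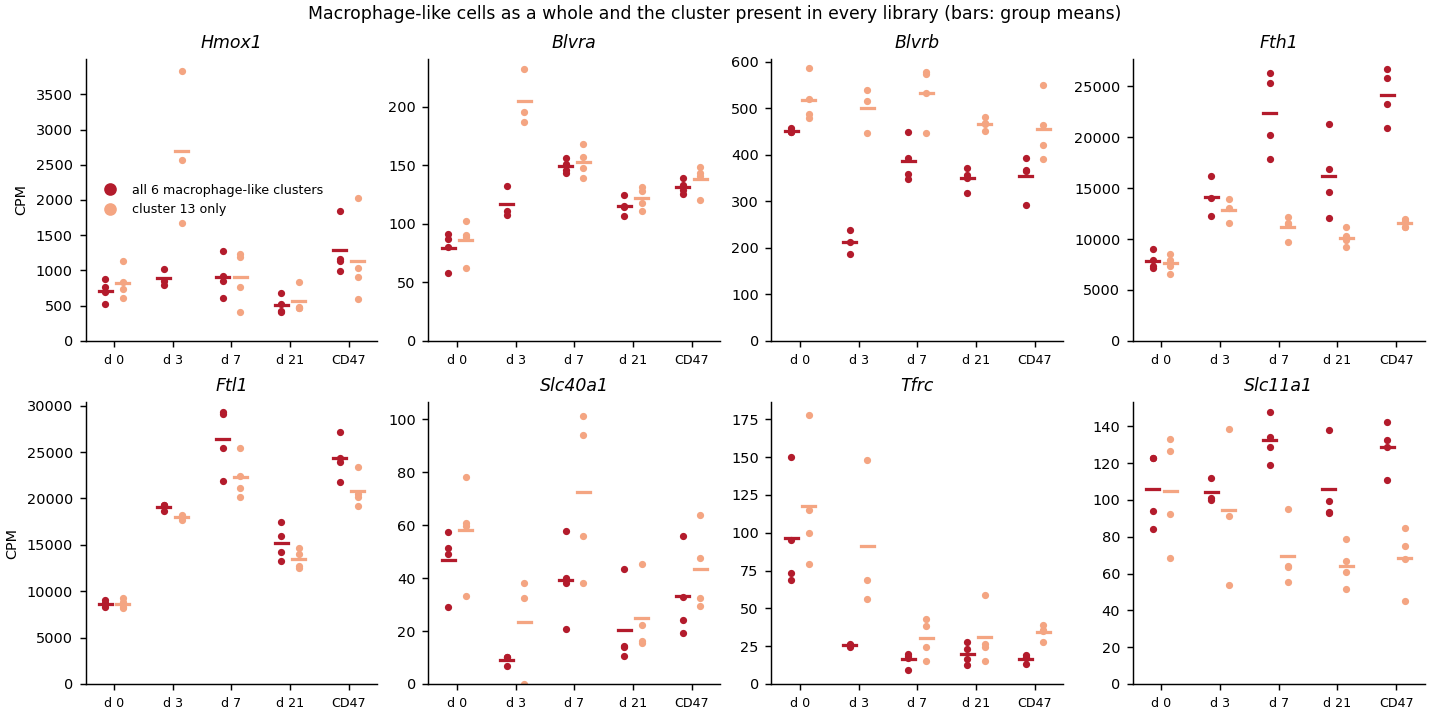
CPM of the members by group over all 6 macrophage-like clusters and in cluster 13 alone, with a point per library and a bar at the group mean. Fth1, Ftl1 and Blvra lie above day 0 in both sets of cells. The day 3 drop of Blvrb is seen over all macrophage-like cells and not in cluster 13, and the day 3 Hmox1 values of cluster 13 (1673 to 3829 CPM) lie above those of the whole lineage.

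Outside macrophage-like cells Fth1 and Ftl1 parted after day 3. In stromal-like cells Fth1 stood at 6567, 6553, 7044 and 7830.4 CPM at day 0 and 11047, 9551 and 10571 CPM at day 3 (0.66, adjusted p = 1.86e-05). It then fell to 4155, 2790.0, 3782 and 3585 CPM at day 7 (-0.96, adjusted p = 1.18e-05 against day 0) and 4382, 3659.6, 3495 and 3719.7 CPM at day 21 (-0.84, adjusted p = 4.23e-06), both below every day 0 library. Ftl1 rose at day 3, from 3499, 3041, 3318 and 3834 to 4741, 4702 and 4758 CPM (0.55, adjusted p = 9.36e-05). It overlapped with day 0 later, at 3526, 4486, 4069 and 3823 CPM at day 7 and 3154, 2825, 3005 and 3027 CPM at day 21 (log2 difference 0.23 and -0.15, adjusted p = 0.0969 and 0.222). The day 7 difference of Ftl1 passed without day 0 replicate 4 (adjusted p = 0.0346). It also passed in 1 fit of all 5 groups, with at least 10 UMIs, no filter or replicates 1 to 3, and with chondrocyte-like cells added (adjusted p = 0.0245, 0.0497, 0.0181, 0.0382 and 0.041). Its fall from day 3 to day 7 (-0.31, adjusted p = 0.0214) was lost without day 3 replicate 1 or 3 (adjusted p = 0.0744 and 0.0617). Within cluster 11 at day 7 Fth1 was lower (-0.46, adjusted p = 0.0243) and Ftl1 higher (0.64, adjusted p = 0.000849) than at day 0. At day 21 against day 0 no member passed within cluster 11, so that the Fth1 call of that day was not kept there. Among the day 7 stromal-like clusters Fth1 ranged from 1881 ± 143 CPM (SD, n = 4) in cluster 3 to 6779.9 ± 1238 CPM in cluster 9.

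In endothelial-like cells Fth1 stood at 2301, 2124, 2271 and 2091 CPM at day 0, at 3974, 3617 and 4866 CPM at day 3 (1.05, adjusted p = 1.6e-07) and at 2492, 2313, 2215 and 2197 CPM at day 7, which overlapped with day 0. Ftl1 stood at 1892, 1869.8, 1953 and 1947 CPM at day 0, 3349, 3827 and 3913 CPM at day 3 (1.08, adjusted p = 7.48e-10). It stood at 2721, 3798, 3498 and 3267 CPM at day 7 (0.82, adjusted p = 1.23e-08) and 1959, 2192, 2001 and 2065 CPM at day 21 (0.15, adjusted p = 0.162). At day 7 the light chain was thus above day 0 in each library and the heavy chain was not. From day 3 to day 7 Fth1 fell (-0.95, adjusted p = 2.15e-05; -0.93, adjusted p = 1.97e-05 within cluster 14), and from day 7 to day 21 Ftl1 fell (-0.66, adjusted p = 0.000239; -0.77, adjusted p = 1.18e-05 within cluster 14).

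Slc40a1 (ENSMUSG00000025993, chr1:45908068-45926523, minus strand), ferroportin, fell in macrophage-like cells at day 3 and rose in stromal-like cells from day 7. Macrophage-like cells held 57.4, 51.4, 28.9 and 49.2 CPM at day 0 (33, 13, 8 and 14 UMIs) and 6.95, 10.2 and 10.0 CPM at day 3, 5.16-fold lower with no overlap (log2 difference -2.37 ± 0.26 (SE), adjusted p = 1.7e-06). Day 7 stood at 20.8, 38.2, 57.6 and 40.0 CPM, above each day 3 library (2.15, adjusted p = 0.00813) and across the day 0 range (-0.10, adjusted p = 0.898). Day 21 stood at 13.8, 10.5, 14.4 and 43.3 CPM, where replicate 4 was apart from the other 3. Against day 0 it did not pass (log2 difference -0.98, adjusted p = 0.239), but it did without day 21 replicate 4 (-1.77, adjusted p = 2.26e-05), with replicates 1 to 3 (adjusted p = 0.000229) and with the replicate number as a block (-1.14, adjusted p = 0.0155).

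Within cluster 13 the falls were -1.09 at day 3 and -1.19 at day 21 (adjusted p = 0.0294 and 0.00966), and day 7 against day 3 did not pass (1.41, adjusted p = 0.178). At day 7 Slc40a1 stood at 72.4 ± 30.4 CPM (SD, n = 4) in cluster 13, 71.2 ± 21.9 CPM in cluster 2 and 61.6 ± 27.9 CPM in cluster 8. It was lower, at 10.4 ± 8.51 CPM in cluster 7, 9.74 ± 8.96 CPM in cluster 6 and 0.492 ± 0.984 CPM in cluster 4. Cluster 7 was thus highest in Fth1 and among the low clusters in ferroportin.

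In stromal-like cells Slc40a1 gave 3, 1, 2 and 3 UMIs in the 4 day 0 libraries (1.42, 1.28, 1.09 and 2.25 CPM) and 21, 28 and 20 UMIs at day 3 (2.23, 2.20 and 2.64 CPM). It stood at 20.4, 17.6, 22.2 and 17.8 CPM at day 7 and 9.29, 10.4, 9.43 and 14.2 CPM at day 21. Each library of days 7 and 21 was above all those of days 0 and 3. The log2 difference from day 0 was 3.71 at day 7 (95% interval 3.12 to 4.30, adjusted p = 4.13e-08). It was 2.90 at day 21 (95% interval 2.15 to 3.65, adjusted p = 7.35e-06), and day 7 exceeded day 3 by 3.00 (adjusted p = 2.45e-06). As a share of the macrophage-like level of the same group, stromal-like Slc40a1 was 3.23% at day 0, 26.0% at day 3, 49.8% at day 7 and 52.8% at day 21. The median of the 11 macrophage markers in stromal-like cells was 0.510%, 6.78%, 1.57% and 0.587% of their macrophage-like level. Single markers reached 10.6%, 10.7%, 4.23% and 10.3%, so that the day 7 and day 21 shares of Slc40a1 were over those of each marker. At day 7 the level was 40.3 ± 12.8 CPM (SD, n = 4) in cluster 3, 15.5 ± 3.19 CPM in cluster 5, 8.92 ± 2.95 CPM in cluster 1, 8.06 ± 1.24 CPM in cluster 9 and 2.43 ± 2.91 CPM in cluster 11.

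From day 7 to day 21 stromal-like Slc40a1 fell (-0.76, adjusted p = 0.00322). The direction turned when chondrocyte-like cells were counted with the stromal-like cells (log2 difference 0.69, adjusted p = 0.0125). The chondrocyte-like cluster held 63.7 ± 22.2 CPM of Slc40a1 at day 21 (SD, n = 4, 35.8 to 83.4 CPM, 957 cells, 1219 UMIs), 311% of the macrophage-like level of the same libraries, while its macrophage markers were at 0.458% of theirs. In endothelial-like cells Slc40a1 gave 0 UMIs in all 4 day 0 libraries, which allows up to 0.615 CPM over the group, and 1.57 to 10.2 CPM at day 7, so it was not tested in the comparisons of single lineages there.

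**Figure D4:**
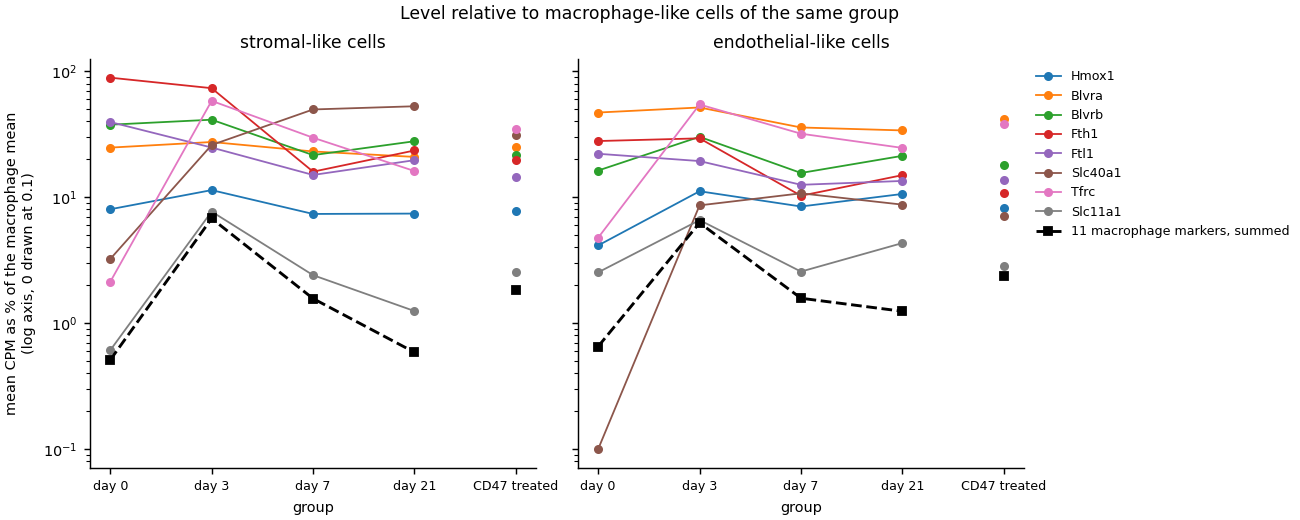
Mean CPM of each member in stromal-like and endothelial-like cells as a percent of the macrophage-like mean of the same group (log axis, 0 drawn at 0.1), with the 11 macrophage markers dashed. The dashed line is the median of the 11 markers' percents, although the key of the figure calls them summed. Slc11a1 runs close to the markers in stromal-like cells, at 7.70% beside 6.78% at day 3, while Slc40a1 reaches 52.8% at day 21 beside 0.587%, and Tfrc 58.3% at day 3 beside 6.78%.

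Tfrc (ENSMUSG00000022797, chr16:32608920-32632794, plus strand), transferrin receptor 1, changed in opposite directions in macrophage-like and the other cells at day 3. Macrophage-like cells held 73.1, 150.3, 68.7 and 94.9 CPM at day 0 and 24.6, 25.7 and 26.5 CPM at day 3, 20.1, 8.91, 18.3 and 17.4 CPM at day 7 and 12.4, 22.9, 28.0 and 16.2 CPM at day 21. Every injured library lay below every day 0 library. The fall from day 0 was 3.47-fold at day 3 (log2 difference -1.80 ± 0.20 (SE), adjusted p = 2.69e-06), 4.90-fold at day 7 (log2 difference -2.29 ± 0.32 (SE), adjusted p = 0.000185) and 4.38-fold at day 21 (log2 difference -2.13 ± 0.27 (SE), adjusted p = 5.5e-06). Day 0 replicate 2, the highest in Tfrc, also held the most hemoglobin RNA, 21886 CPM summed over 4 globin genes against 637 CPM in the lowest day 0 library; without it the day 3 difference was -1.42 (adjusted p = 5.15e-06). Within cluster 13 the difference was -0.55 at day 3 (adjusted p = 0.164), -1.81 at day 7 (adjusted p = 1.04e-05) and -1.85 at day 21 (adjusted p = 0.000663), so that there the fall passed the test from day 7. Day 7 against day 3 over all macrophage-like cells did not pass (-0.60, adjusted p = 0.055) but it did without day 7 replicate 1 or 2 (adjusted p = 0.0421 and 0.0117). It also passed in 1 fit of all 5 groups, with DESeq2 and within cluster 13 (adjusted p = 0.0326, 0.0242 and 0.00787).

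Stromal-like cells gave 6, 0, 3 and 5 UMIs of Tfrc at day 0 (2.83, 0, 1.64 and 3.76 CPM), 17.7, 10.9 and 16.1 CPM at day 3 and 4.75, 5.06, 4.72 and 4.71 CPM at day 7. The log2 difference was 2.76 at day 3 (95% interval 1.95 to 3.56, adjusted p = 9.19e-06), and Tfrc fell again by day 7 (-1.68, adjusted p = 5.95e-05). Day 21 against day 7 did not pass (adjusted p = 0.259), but it did without day 21 replicate 4 (log2 difference -0.99, adjusted p = 0.0365) and with the highest doublet scores removed (adjusted p = 0.0432). The remaining difference at day 7 from day 0 (1.07, adjusted p = 0.024) was lost without day 0 replicate 3 (adjusted p = 0.0791) and in 1 fit of all 5 groups (adjusted p = 0.0826). In endothelial-like cells Tfrc stood at 7.37, 1.76, 5.40 and 3.93 CPM at day 0, 9.48, 13.8 and 18.6 CPM at day 3 (8, 11 and 16 UMIs; 1.68, adjusted p = 0.00347) and 5.24, 3.66, 6.60 and 5.20 CPM at day 7. The fall from day 3 to day 7 (-1.52, adjusted p = 0.0111) was lost without day 3 replicate 3 (adjusted p = 0.102). At day 3 Tfrc stood at 58.3% of the macrophage-like level in stromal-like cells and 54.5% in endothelial-like cells, where the median macrophage marker stood at 6.78% and 6.27%.

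Slc11a1 (ENSMUSG00000026177, chr1:74375195-74386062, plus strand), the phagosomal metal transporter, stayed within 84.3 to 148 CPM in macrophage-like cells. It stood at 94.0, 123, 123 and 84.3 CPM at day 0, 99.9, 101 and 112 CPM at day 3, 129, 134, 119 and 148 CPM at day 7 and 93.0, 93.4, 99.2 and 138 CPM at day 21. Day 7 passed the test against day 0 (0.57, adjusted p = 0.00374) with overlapping CPM ranges, and against day 3 without overlap (0.41, adjusted p = 0.00518). Both turned within cluster 13 (-0.49, adjusted p = 0.0901, and -0.25, adjusted p = 0.506), while at day 7 Slc11a1 was 199.7 ± 28.1 CPM (SD, n = 4) in cluster 7 and 69.5 ± 17.6 CPM in cluster 13. Day 21 did not pass against day 7 (adjusted p = 0.0771) but it did without day 21 replicate 4 (log2 difference -0.55, adjusted p = 0.00458). It also passed in 1 fit of all 5 groups, with no filter on low counts and with replicates 1 to 3 (adjusted p = 0.0309, 0.00801 and 0.0113).

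In stromal-like cells Slc11a1 gave 2, 0, 3 and 0 UMIs at day 0 and 63, 90 and 78 UMIs at day 3 (6.69, 7.07 and 10.3 CPM; log2 difference 3.31, adjusted p = 1.97e-05). It stood at 4.07, 1.83, 4.31 and 2.53 CPM at day 7 (-1.39, adjusted p = 0.00458 against day 3). All 11 macrophage markers had UMIs in stromal-like cells, and their sum moved with it, from 73.6 to 186 CPM at day 0 to 1537 to 1726 CPM at day 3 and 418 to 677 CPM at day 7. Slc11a1 was at 0.609%, 7.70% and 2.41% of its macrophage-like level at days 0, 3 and 7, beside 0.510%, 6.78% and 1.57% for the median marker. The part of the markers in the result was not tested. The 7 granulocyte markers summed to a mean of 1860 CPM in stromal-like cells at day 3 and 68.7 CPM at day 0. The differences at day 7 from day 0 (1.94, adjusted p = 0.0242) and day 21 from day 7 (-1.30, adjusted p = 0.0429) were lost without single libraries and with replicates 1 to 3 (adjusted p = 0.0635 and 0.129), the second also with the highest doublet scores removed (adjusted p = 0.117). The first was lost without day 0 replicate 1 or 4 (adjusted p = 0.0665 and 0.0666), and the second without day 21 replicate 1, 3 or 4 or day 7 replicate 1, 3 or 4 (adjusted p from 0.0527 to 0.116). Endothelial-like cells gave 1 to 10 UMIs of Slc11a1 per library, and it was not tested there.

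The same markers stand beside the other day 3 rises. In endothelial-like cells all 11 macrophage markers had UMIs, with sums of 199 to 436 CPM at day 0, 1216 to 1805 CPM at day 3 and 224 to 778 CPM at day 7. The 7 granulocyte markers had mean sums of 33.7 CPM at day 0 and 1607 CPM at day 3. Hmox1 in endothelial-like cells was 4.14% of the macrophage-like level at day 0, 11.2% at day 3 and 8.45% at day 7, against 0.653%, 6.27% and 1.58% for the macrophage markers. For Ftl1 the shares were 22.1%, 19.4% and 12.6%. In macrophage-like cells the granulocyte markers had mean sums of 223 CPM at day 0 and 2182 CPM at day 3. The part of these markers in the day 3 results was not tested.

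The change from day 0 to day 3 was then compared between lineages in 1 model with the library as a block. Against stromal-like cells, macrophage-like cells differed for Tfrc (log2 -4.16 ± 0.54 (SE), adjusted p = 2.73e-07) and Slc11a1 (log2 -2.96 ± 0.82 (SE), adjusted p = 0.00692). They also differed for Ftl1 (log2 0.96 ± 0.11 (SE), adjusted p = 2.91e-08) and Slc40a1 (log2 -2.72 ± 0.98 (SE), adjusted p = 0.0406). The calls took 25.8% of all genes, 15.5% higher and 10.3% lower, with a median of 0.17 over all genes. The Slc40a1 difference was lost without any one of the 7 day 0 and day 3 libraries (adjusted p from 0.0512 to 0.144) and with at most 10% mitochondrial UMIs (adjusted p = 0.0601). Against endothelial-like cells the difference passed for Tfrc (log2 -3.07 ± 0.68 (SE), adjusted p = 0.000917) and Hmox1 (log2 -1.09 ± 0.32 (SE), adjusted p = 0.0136). It also passed for Ftl1 (log2 0.53 ± 0.11 (SE), adjusted p = 0.000348) and Blvrb (log2 -0.55 ± 0.17 (SE), adjusted p = 0.0148). Here the calls took 22.6% of all genes, 15.2% higher and 7.44% lower, with a median of 0.27. The changes of Fth1 and Blvra did not pass in either pair, although with no filter on low counts Fth1 passed in both (adjusted p = 1.07e-11 and 3.12e-06). Fth1 also passed against stromal-like cells without the library block (adjusted p = 0.0312) and without day 21 replicate 4 (log2 0.56, adjusted p = 0.0364). Without the library block Hmox1 did not pass against endothelial-like cells (adjusted p = 0.0867). Ftl1 moved to 0.34, 0.29 and 0.31 without day 0 replicates 1, 3 and 4 (adjusted p = 0.0646, 0.122 and 0.0676), and to 0.26 with RLE size factors (adjusted p = 0.0991). It was also lost with DESeq2 and with the highest doublet scores removed (adjusted p = 0.0892 and 0.14). Blvrb was lost without day 3 replicate 2 or 3 (adjusted p = 0.0819 and 0.1) and with no filter on low counts (adjusted p = 0.247).

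Of 50 other genes of heme and iron biology, 48 were in the files, and each one named below passed the test in edgeR with groups that did not overlap. In macrophage-like cells 13 of 34 tested rose and 9 fell at day 3, 9 of 41 rose and 7 fell at day 7, and 8 of 35 rose and 6 fell at day 21, all against day 0. Of all genes tested there, 25.1% rose and 28.9% fell at day 3, 18.3% rose and 16.9% fell at day 7, and 13.4% rose and 13.6% fell at day 21. Cd163, the receptor for hemoglobin bound to haptoglobin, fell from 747 ± 194 CPM (SD, n = 4) at day 0 to 91.8 ± 32.4 CPM (n = 3) at day 3 and 28.0 ± 12.1 CPM (n = 4) at day 7. Its log2 differences were -2.97 and -4.52, and it is also a leading gene of cluster 13. Ncoa4, the receptor that carries ferritin to the lysosome, fell from 36.5 ± 22.2 to 3.23 ± 0.534 CPM at day 3 (log2 difference -3.33), and Cp, the ferroxidase ceruloplasmin, from 43.8 ± 7.60 to 2.17 ± 0.501 CPM (-4.28). The iron-binding secreted protein Lcn2 rose from 3.59 ± 5.12 to 33.7 ± 8.69 CPM (3.58). Hp, haptoglobin itself, rose from 66.4 ± 60.3 to 366 ± 61.4 CPM (2.29), and Hif1a, the oxygen-regulated transcription factor, from 54.5 ± 8.72 to 238 ± 45.3 CPM (2.19). At day 7 the largest rises were in Prdx1, a peroxiredoxin, from 613 ± 59.0 to 3141 ± 968 CPM (2.58), Alas1, the rate-limiting enzyme of heme synthesis (2.13), and Gclm, a subunit of glutathione synthesis (1.91). Of the 7 listed targets of the transcription factor Nrf2, the oxidative stress regulator for which Hmox1 and both ferritin chains are also known as targets, 3 of 5 tested rose at day 3 and 4 of 6 at day 7, where 25.1% and 18.3% of all genes rose.

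Among stromal-like cells 18 of 40 listed genes rose and 10 fell at day 3, 17 of 45 rose and 15 fell at day 7, and 7 of 40 rose and 7 fell at day 21, against day 0. Of all genes tested there, 33.2% rose and 32.9% fell at day 3, 27.9% rose and 26.5% fell at day 7, and 19.1% rose and 18.9% fell at day 21. Slc39a14, a transporter for iron not bound to transferrin, rose from 17.6 ± 2.20 CPM (SD, n = 4) to 196 ± 26.9 CPM (n = 3) at day 3. It stood at 88.7 ± 26.2 and 104 ± 18.3 CPM (n = 4 each) at days 7 and 21 (log2 difference 3.57, 2.35 and 2.61). Hp rose likewise (4.36, 3.96 and 4.08), as did Hif1a at days 7 and 21 (2.50 and 2.27). Slc7a11, the cystine transporter, rose at day 3 in stromal-like cells (4.64) and in endothelial-like cells (5.62), from under 1 CPM in both. Of the list of iron uptake, reduction and oxidation, 5 of 7 genes tested fell at day 3, among them Trf, transferrin (-1.40), and the reductase Steap3 (-1.26), while 2 rose. Of all genes 32.9% fell and 33.2% rose in that comparison.

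In endothelial-like cells 17 of 39 listed genes rose and 3 fell at day 3, and 15 of 37 rose and 7 fell at day 7. Of all genes tested there, 28.5% rose and 27.6% fell at day 3, and 29.6% rose and 28.9% fell at day 7. Of 7 Nrf2 targets tested 6 rose at day 3, and of 8 heme synthesis genes tested, heme oxygenase 2 included, 4 rose at each of these days, beside 28.5% and 29.6% of all genes at days 3 and 7. Steap4, a metal reductase, fell from 70.5 ± 8.87 CPM (SD, n = 4) at day 0 to 14.9 ± 9.62 CPM (n = 4) at day 7 (log2 difference -2.34). Hemoglobin RNA, 4 of 4 globin genes, was lower than at day 0 at both days, with sums of 7716 to 16158 CPM at day 0 and 334 to 2579 CPM at day 3. In macrophage-like cells these sums were 637 to 21886 CPM at day 0 and 752 to 2343 CPM at day 3. Across lineages, Cd163 (6.36), the transcription factor Spic of iron-recycling macrophages (5.80) and Trf (3.82) were the listed genes highest in macrophage-like over stromal-like cells. The heme exporter Abcg2 was higher in endothelial-like cells, at 168 ± 31.6 CPM (SD, n = 19) against 12.6 ± 3.22 CPM in stromal-like cells.

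CD47 treatment was compared with day 7 in each lineage. In edgeR 0 of 8 members passed in macrophage-like cells, 0 of 6 in endothelial-like cells and 0 of 8 in stromal-like cells. Over all genes the calls took 0.0183% of all genes (0.0183% higher, 0% lower) in macrophage-like cells, 0.0204% of all genes (0.0102% higher, 0.0102% lower) in endothelial-like cells and 0.0148% of all genes (0% higher, 0.0148% lower) in stromal-like cells. At an unadjusted p under 0.05 in edgeR the numbers of members were 1, 0 and 3. Over all genes 830 of 10909, 829 of 9815 and 2029 of 13538 lay under 0.05 in macrophage-like, endothelial-like and stromal-like cells. DESeq2 called 0, 0 and 3 members, beside 24, 4 and 288 of all genes left by the same filter on low counts. Of the 48 listed pathway genes 45, 39 and 44 were tested, and edgeR called 0 in each lineage. At an unadjusted p under 0.05 the numbers were 7, 4 and 8, and DESeq2 called 1, 0 and 1.

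The largest of these differences was that of Slc40a1 in stromal-like cells, at 7.74, 12.1, 10.4 and 11.2 CPM in the CD47 treated libraries and 20.4, 17.6, 22.2 and 17.8 CPM at day 7. These groups did not overlap, with a log2 difference of -0.91 ± 0.14 (SE) and an adjusted p of 0.0711, which moved to 0.00486 when all 5 groups were fitted together and to 2.35e-05 in DESeq2. Fth1 in stromal-like cells stood at 4327, 4815, 5124 and 4817 CPM against 4155, 2790.0, 3782 and 3585 CPM (0.42, adjusted p = 0.146, no overlap). Hmox1 there stood at 75.7, 91.5, 106 and 129 CPM against 62.0, 64.1, 64.5 and 78.0 CPM (0.58, adjusted p = 0.131). In macrophage-like cells Hmox1 stood at 997, 1161, 1134 and 1848 CPM in the CD47 treated libraries, with replicate 4 the highest in both groups, and its difference of 0.48 had a 95% interval of -0.20 to 1.16. Blvra was lower in all 4 CD47 treated libraries, at 129, 139, 126 and 133 CPM (-0.20, adjusted p = 0.567). For Fth1, Ftl1 and Slc11a1 in macrophage-like cells the 95% intervals of the log2 difference were -0.17 to 0.36, -0.37 to 0.09 and -0.25 to 0.14. The difference of this change between macrophage-like and stromal-like cells passed for 0 of 8 members in edgeR and 0 in DESeq2. The edgeR calls took 0.168% of all genes, 0.048% higher and 0.12% lower. At an unadjusted p under 0.05 in edgeR 1 member passed, Slc40a1, beside 965 of 12497 genes.

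Across all 13 named cell types the order of levels differed by gene (means ± SD over n libraries). Only libraries with at least 10 cells of a type count, so that the means cover unlike sets of days. Of 165 B lymphocyte-like cells 153 were from day 0, of 399 granulocyte-like cells 304 from day 3, and of 1151 chondrocyte-like cells 957 from day 21. Cell type and day were not separated in these orders. Hmox1 averaged 859 ± 344 CPM in macrophage-like cells (n = 19), 420.3 ± 296 CPM in granulocyte-like cells (n = 6), 209 ± 325 CPM in erythrocyte-like cells (n = 4) and 197 ± 139.8 CPM in lymphatic endothelial-like cells (n = 14). It was under 100 CPM on average in the other 9 types. The granulocyte-like cluster also held 11 of the 11 macrophage markers and the erythrocyte-like cluster 10 of them. The part of macrophage RNA in the levels of these types was not tested. Fth1 averaged 29438 ± 7389 CPM in granulocyte-like cells (n = 6) and 17113 ± 6705 CPM in macrophage-like cells (n = 19), followed by 10471 ± 1432 CPM in plasmacytoid dendritic cell-like cells (n = 8). Tfrc averaged 52.9 ± 16.6 CPM in plasmacytoid dendritic cell-like cells (n = 8), 35.5 ± 36.2 CPM in macrophage-like cells (n = 19) and 31.9 ± 8.02 CPM in B lymphocyte-like cells (n = 4). The B lymphocyte-like libraries were all of day 0, the day on which macrophage-like Tfrc was highest. Slc40a1 averaged 48.8 ± 27.6 CPM in chondrocyte-like cells (n = 12), 33.5 ± 28.8 CPM in granulocyte-like cells (n = 6) and 30.8 ± 18.0 CPM in macrophage-like cells (n = 19). In each of these orders the ranges of neighbouring cell types overlapped.

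Slc11a1 was also found outside the myeloid cells, in pericyte/smooth muscle-like cells. It averaged 126 ± 26.9 CPM in granulocyte-like cells (n = 6), 116 ± 19.1 CPM in macrophage-like cells (n = 19) and 87.2 ± 29.4 CPM in pericyte/smooth muscle-like cells (n = 19), with overlapping ranges, and under 30 CPM in each other type. In the pericyte/smooth muscle-like cells the groups averaged 59.0 ± 18.7 CPM at day 0, 120.9 ± 32.2 CPM at day 3, 90.8 ± 15.7 CPM at day 7, 106 ± 20.9 CPM at day 21 and 68.0 ± 16.8 CPM with CD47 treatment. Their level was 75.2% of that in macrophage-like cells, where the 11 macrophage markers stood at 1.94%, and both clusters of the type held it, 99.4 ± 39.1 CPM in cluster 15 (17 libraries) and 65.6 ± 22.8 CPM in cluster 18 (16 libraries). A UMI of Slc11a1 was found in 44.2% of 1901 pericyte/smooth muscle-like cells (median 8377 UMIs per cell) and in 5.28% of 549 T/NK lymphocyte-like cells (median 4147 UMIs per cell), the comparison type that should lack the gene.

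**Figure D5:**
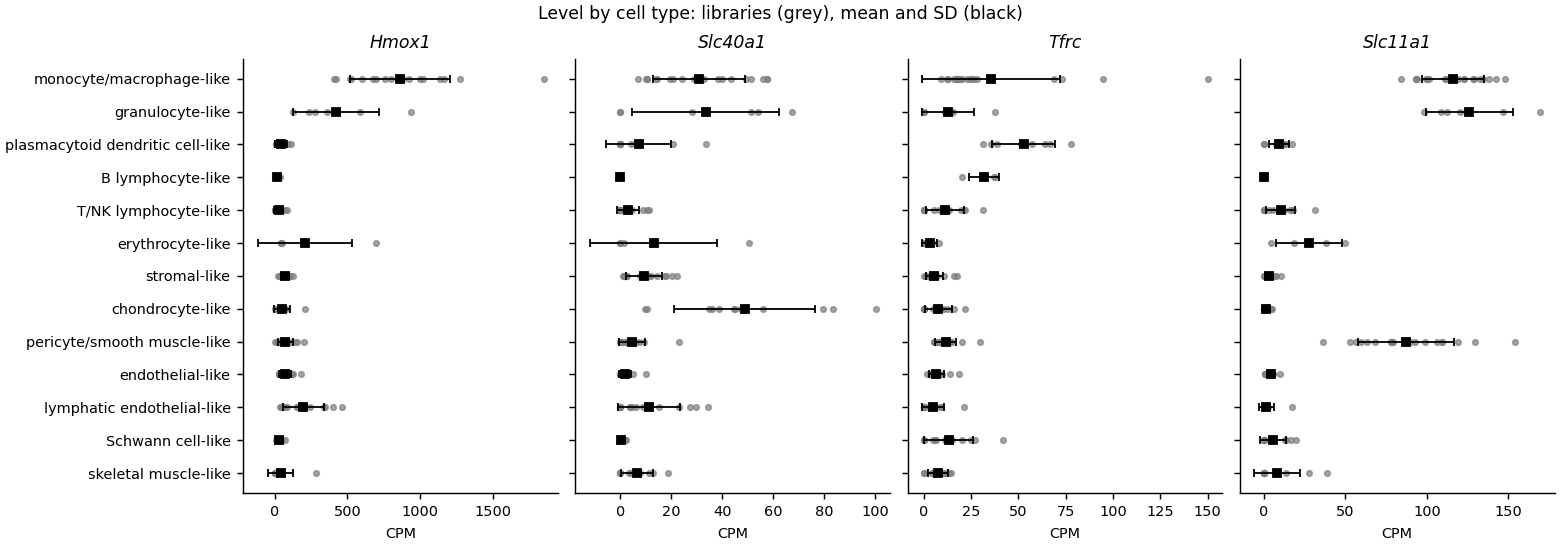
CPM of Hmox1, Slc40a1, Tfrc and Slc11a1 in 13 named cell types, with grey points for libraries with at least 10 cells of the type and black marks for the mean and SD. The libraries of the types come from unlike sets of days. Hmox1 is highest in macrophage-like cells, Slc40a1 in chondrocyte-like cells (48.8 CPM) and Tfrc in plasmacytoid dendritic cell-like cells (52.9 CPM), and Slc11a1 in pericyte/smooth muscle-like cells (87.2 CPM) lies near the macrophage-like level.

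Macrophage-like cells gave a larger share of each member's UMIs than of all UMIs in every group, except for Slc40a1 at day 21. They held 8.10% of all UMIs at day 0, 48.4% at day 3, 20.1% at day 7 and 8.21% at day 21 (means over libraries). Of Hmox1 UMIs they held 60.4%, 86.2%, 74.4% and 53.9%, and of Slc11a1 UMIs 64.5%, 83.1%, 78.3% and 46.7%. For Ftl1 the shares were 24.0%, 75.3%, 60.7% and 33.4%, and for Slc40a1 63.3%, 61.1%, 34.9% and 6.35%.

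The genes whose levels were most like each member's were found over 15 points, the means of 3 lineages in 5 groups, among 10748 genes, with Pearson's r of log2(CPM + 1) as a description, since the points share libraries. Hmox1 was closest to Tfec (r = 0.982), Bin2 (0.981) and Tlr6 (0.978), Fth1 to Ifi30 (0.947), Cstb (0.939) and Mapkapk3 (0.939), and Ftl1 to Pycard (0.989), Cyba (0.982) and Ctsz (0.981). Slc11a1 was closest to Tifab, Tnfrsf13b and Fermt3 (0.995 each), Blvra to Arpc5 (0.974), Sh3bgrl3 (0.973) and Trpv2 (0.969), and Blvrb to Hnmt (0.987), Pfkfb4 (0.973) and Cebpa (0.970). Tfrc was closest to Slc25a37 (0.961), the mitochondrial iron importer mitoferrin 1, Siglece (0.931) and Cass4 (0.929). Slc40a1 had the lowest likeness of the set, with Cox6b2 (0.932), Tns3 (0.896) and Hexa (0.895).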

How the data were processed

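The authors sequenced 10x 3′ libraries, aligned the reads to the mouse genome with Cell Ranger and deposited unnormalized UMI counts per gene and cell barcode for 19 libraries. The labels' build field names GRCh38 for 15 samples and mm10 for 4, while the gene identifiers are mouse. Barcodes under 500 genes or over 25% mitochondrial UMIs were dropped, and the cells were clustered with scanpy 1.11.5 (2000 variable genes without the members and listed pathway genes, 30 components, 20 neighbours, Leiden resolution 0.8). No doublets were removed. Clusters were named from at least 3 markers, and 4 clusters with 2733 cells stayed unnamed. Counts were summed per library and lineage (at least 10 cells) and tested over all genes with edgeR 4.0.16 (R 4.3.3), using TMM factors, filterByExpr, a robust quasi-likelihood fit of the groups compared and Benjamini-Hochberg adjustment at 0.05. Comparisons between lineages had the library as a block. Steps were tested on simulated data.

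Members and lists were chosen with earlier results of these data known. All 8 members were named in each comparison; pathway genes were named by adjusted p, groups without overlap, a mean of at least 10 CPM in 1 group and the 3 largest differences in each direction. Alternatives were DESeq2 1.42.0, RLE size factors, other filters, doublet removal (the 3.9% highest Scrublet scores), at most 10% mitochondrial UMIs, 1 fit of all 5 groups, replicate blocks, replicates 1 to 3 only and leaving out each library. Fits within single clusters were added after seeing the data. Sequences were read from GRCm38 with GENCODE annotation. The floor given for a count of 0 covers counting error only; 95% intervals of log2 differences come from the edgeR fits and include the spread between libraries.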

Additional observations from a re-analysis of the deposited data

Results flagged for a closer look

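Within groups of 4 libraries, 7 of 96 groups of a member in a lineage held a library that stood apart from the other 3 by Dixon's gap test (7.29%, where chance gives about 1 in 20). In macrophage-like cells these were Slc40a1 in day 21 replicate 4 (43.3 CPM, others 10.5 to 14.4 CPM) and Slc11a1 in the same library (137.9 CPM, others 93.0 to 99.2 CPM). In stromal-like cells they were Hmox1 in day 7 replicate 4 (78.0 CPM, others 62.0 to 64.5 CPM) and Tfrc in day 7 replicate 2 (5.06 CPM, others 4.71 to 4.75 CPM). In endothelial-like cells they were Slc40a1 in day 7 replicate 3 (10.2 CPM, others 1.57 to 2.97 CPM), Slc11a1 in CD47 treated replicate 2 (0.499 CPM, others 4.42 to 4.84 CPM) and Blvrb in day 21 replicate 1 (70.6 CPM, others 75.3 to 76.2 CPM).

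The change from day 0 to day 3 differed between macrophage-like and stromal-like cells, by the test of the difference itself, for Tfrc (log2 -4.16), Slc11a1 (-2.96), Slc40a1 (-2.72) and Ftl1 (0.96). Between macrophage-like and endothelial-like cells it differed for Tfrc (log2 -3.07), Hmox1 (-1.09), Blvrb (-0.55) and Ftl1 (0.53). The median of such differences over all genes was 0.17 in the first pair and 0.27 in the second. The Ftl1 difference of the second pair was lost with RLE size factors and with DESeq2, and the Ftl1 changes fitted in each of these lineages alone were close. The Slc40a1 value rested on 9 UMIs in the stromal-like sums of day 0, and its call was lost without any single day 0 or day 3 library. The Slc11a1 value against stromal-like cells rested on fewer such UMIs. Stromal-like Slc11a1 moved from 0.609% to 7.70% of its macrophage-like level, beside 0.510% to 6.78% for the median macrophage marker, whose part was not tested.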

How the results depend on the processing

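Of the members' tested values, 163 of 174 kept their side of the threshold with DESeq2, and their direction where either fit called them. A value called in neither fit was counted as kept whatever its direction. By this count 172 of 174 were kept with RLE size factors, 172 of 174 with at most 10% mitochondrial UMIs and 167 of 172 with doublets removed. In 1 fit of all 5 groups 119 of 126 were kept, with no filter on low counts 159 of 174, and with at least 10 UMIs in every library 138 of 142. With 1 library left out 1799 of 1865 values were kept. Depth limits the precision of low genes in the thin sums, such as Slc40a1, Tfrc and Slc11a1 at day 0. The cause of the changes below was not tested, beyond the smaller number of genes tested with at least 10 UMIs and of cells in single clusters.

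Only values called in the main fit or in the alternative were searched for a reversed direction. Among them, directions reversed for Slc40a1 in stromal-like cells at day 21 against day 7 with chondrocyte-like cells added (log2 0.69). Within cluster 13 they reversed for Slc11a1 at day 7 against day 0 (-0.49) and, at day 7 against day 3, for Fth1 (-0.091), Slc11a1 (-0.25) and Blvra (-0.34). Within cluster 11 they reversed for Blvrb at day 7 against day 0 (0.071) and, at day 21 against day 7, for Blvra (0.46) and Blvrb (-0.29), and within cluster 12 for Blvrb at day 21 against day 7 (-0.28).

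Counts of members called moved in macrophage-like cells from 6 to 2 within cluster 13 at day 7 against day 3, and from 2 at day 21 against day 7 to 4 in 1 fit of all 5 groups, 4 with DESeq2, 4 with no filter, 5 with replicates 1 to 3, 1 within cluster 13 and 2 to 5 with 1 library left out (5 without day 21 replicate 4). In endothelial-like cells they moved from 1 at day 21 against day 0 to 0 in 1 fit of all 5 groups and 2 within cluster 12, with lymphatic endothelial-like cells added or with no filter, from 2 at day 7 against day 3 to 1 with at least 10 UMIs, 4 with doublets removed and 1 to 3 with 1 library left out (1 without day 3 replicate 3), and from 3 at day 21 against day 7 to 1 with DESeq2, within cluster 12, within cluster 14 or with replicates 1 to 3, and to 1 to 2 with 1 library left out. In stromal-like cells they moved from 6 to 2 within cluster 11 at day 7 against day 0, from 3 at day 21 against day 0 to 0 within cluster 11 and 6 with chondrocyte-like cells added, from 6 at day 21 against day 7 to 1 within cluster 11 and 3 to 6 with 1 library left out (3 without day 21 replicate 1, day 21 replicate 3 or day 7 replicate 4), and from 0 with CD47 treatment to 1 in 1 fit of all 5 groups, 3 with DESeq2 and 1 with no filter. With at least 10 UMIs in every library the lineage pairs with macrophage-like cells moved from 8 to 5 members each and the day 3 difference of change between macrophage-like and stromal-like cells from 4 to 1, and with no filter the CD47 difference of change moved from 0 to 2.

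Replicate numbers did not pair the libraries as a set: 7 of 66 same-numbered pairs had a correlation of deviations over 0.1 (range -0.27 to 0.43). Among these were pairs of CD47 treated with day 7, replicates 2 and 3 in endothelial-like cells (0.13 and 0.12) and replicates 1 and 4 in stromal-like cells (0.18 and 0.11). In that comparison every same-numbered pair was above 0 except replicate 4 in endothelial-like cells (-0.045), and the main fit did not pair the libraries. The highest values were those of replicate 4 at day 21 and day 7, 0.43 in stromal-like and 0.23 in macrophage-like cells, beside -0.022 in endothelial-like cells. Hmox1 was also highest in replicate 4 in macrophage-like and stromal-like cells at days 7 and 21 and with CD47 treatment, but not at day 0. Day 3 had no replicate 4. The replicate 4 libraries come after all others in the numbering of the series, and whether they share a batch was not tested. With the number as a replicate block 118 of 126 member values kept their call. Macrophage-like Slc40a1 (log2 -1.14, adjusted p = 0.0155 in edgeR) and stromal-like Hmox1 (-0.58, adjusted p = 0.0161) at day 21 against day 0 and macrophage-like Hmox1 (-0.88, adjusted p = 0.00596) and Slc11a1 (-0.38, adjusted p = 0.0357) at day 21 against day 7 gained it. Endothelial-like Tfrc (adjusted p = 0.0579) and stromal-like Ftl1 (adjusted p = 0.0525) at day 7 against day 3 and endothelial-like Blvrb (adjusted p = 0.0684) and stromal-like Slc11a1 (adjusted p = 0.0811) at day 21 against day 7 lost it. Counts moved from 2 to 4 in macrophage-like cells at day 21 against day 7 and from 2 to 1 in endothelial-like cells at day 7 against day 3.

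Counts over all genes differed by over 1.5 times in these cases. With CD47 treatment 2 genes were called in each lineage by edgeR, against 24, 4 and 288 with DESeq2 and 39, 54 and 59 with no filter in macrophage-like, endothelial-like and stromal-like cells, 48 in stromal-like cells in 1 fit of all 5 groups, 0 to 9, 0 to 1 and 0 to 20 with 1 library left out, and 6 and 7 with the replicate block in macrophage-like and stromal-like cells; the CD47 difference of change moved from 21 to 136 with no filter, 0 with no library block and 0 to 30 with 1 library left out. Within cluster 13 the calls went from 3269 to 1890 (day 3 against day 0), 3365 to 1328 (day 7), 1822 to 761 (day 21), 3414 to 1517 (day 7 against day 3) and 1365 to 336 (day 21 against day 7). Within cluster 11 they went from 6856 to 1130, 4082 to 482 and 4450 to 487, within cluster 12 from 5297 to 1475, 2255 to 921 and 2875 to 334 (day 7 and day 21 against day 0, then day 21 against day 7 in both), and within cluster 14 from 2875 to 1707. With at least 10 UMIs in every library, 3269, 3365 and 6856 became 1883, 1760 and 4465, and the lineage pairs of 10111, 9217 and 9321 became 2136, 2071 and 2028. Endothelial-like cells at day 7 against day 3 went from 1384 to 651 with the replicate block and 858 to 1626 with 1 library left out, at day 21 against day 0 from 2255 to 1420 with replicates 1 to 3, and macrophage-like cells from 3414 to 2200 and from 1365 to 905 at the lowest with 1 library left out.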
